A study of Mus musculus with 6 samples.

Results

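MYC, MAX and the MXD proteins form a network of transcription factors that pair with each other and bind the same short DNA element, the E-box. MYC binds DNA as a pair with MAX and raises the transcription of genes for growth, ribosome assembly and nucleotide synthesis, whereas MXD1, MXD3, MXD4, MXI1 and MNT compete for MAX and recruit repressors. MLX is a second shared partner, which pairs with some MXD proteins, with MNT and with the glucose sensors MLXIP and MLXIPL. In lung tumours driven by a kinase, MYC transcription is a known target of ERK signalling. The network was taken as all probe sets annotated to 1 of 10 gene symbols alone: MYC, its relatives MYCN and MYCL, MAX, MXD1, MXD3, MXD4, MXI1, MNT and MLX. Of the 19775 genes with such a probe set on the array, these 10 symbols account for 9, since MXD4 had none of its own. They hold 31 probe sets.

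The tumours were grown under the skin of SCID mice, which lack functional T and B cells, from NCI-H2228, a single human lung adenocarcinoma cell line with an EML4-ALK fusion. Dosing was by mouth, and tumours were taken 6 h later. The controls received the vehicle (0 mg/kg), and the other groups 4 or 20 mg/kg of the ALK inhibitor CH5424802 (alectinib). There were 2 arrays in each of the 3 groups. The labels leave unsaid whether both arrays of a group stem from different mice, and all p-values here rest on a spread between arrays that may be technical.

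Values are log2 intensities of a human expression array, on which the lowest possible reading was 2.19. A probe set is a group of probes for 1 transcript region. Between 39.5% and 40.2% of all probe sets sat at that floor. All 9 epithelial markers of lung adenocarcinoma were measured, among them NKX2-1 and NAPSA, and KRT18 was the 1 of 9 that changed at 20 mg/kg (log2 change -1.54, adjusted p = 0.0416), where 4.33% of all tested genes were called. At that dose 5 of the 9 had an unadjusted p under 0.05, against 24.2% of all genes. KRT8 was at -0.88 (adjusted p = 0.0529) and KRT7 at -0.92 (adjusted p = 0.163). EPCAM and CDH1 went the other way. EPCAM read 13.69 and 13.86 with vehicle and 14.17 and 14.39 at 20 mg/kg. CDH1 read 13.74 and 13.88 with vehicle, then 13.96 and 14.13. Groups did not overlap for 5 lower and 2 higher markers, where 50.4% of all tested genes had no overlap. The summed epithelial intensities were 82240 and 91394 with vehicle, 88179 and 90243 at 4 mg/kg, then 71179 and 80693 at 20 mg/kg, and the part of this in the results at 20 mg/kg was not tested. Among 7 fibroblast markers 5 were tested and none passed, with PDGFRB at the floor and summed intensities of 36660 and 39422 with vehicle, 37588 and 36410 at 4 mg/kg, then 35937 and 40325 at 20 mg/kg. COL1A1 made up most of each of these sums. The counts of fibroblast markers at an unadjusted p under 0.05 were 0 at 20 mg/kg and 1 at 4 mg/kg, where 17.0% of all genes had such a p. Macrophage and leukocyte markers summed to between 76.0 and 80.4 in every array, with CD163 at the floor. How mouse host transcripts read on this array was not measured. In bulk tumour RNA, fewer cells of a type and less RNA per cell cannot be told apart. The 18S rRNA control, in linear intensity, was at 1713 and 4058 with vehicle and between 374 and 637 in the treated arrays. Its part in the comparisons with vehicle was not tested.

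Of the 31 probe sets, 13 had a mean log2 intensity of at least 4 and were tested, and 18 did not. They represent 7 of the 10 genes: MYC, MYCL, MAX, MXD1, MXI1, MNT and MLX. MYCN, the relative of MYC known from neuroblastoma, had 10 probe sets, of which 9 were at the floor in all 6 arrays and the last reached 3.17 at most. The 1 probe set of MXD3, which is known from dividing cells, was at the floor in every array. MYCL, first found in small cell lung cancer, read close to the bottom of the scale at 4.54 and 4.57 with vehicle, 4.10 and 4.58 at 4 mg/kg, then 4.56 and 4.67 at 20 mg/kg. Its second probe set read 2.66 throughout. The MYCL groups overlapped in every comparison, with 4 mg/kg replicate 1 lowest, and no comparison passed the test (adjusted p between 0.58 and 0.925). The members read well above the floor were MYC, MAX, MXD1, MXI1, MNT and MLX.

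**Figure D1:**
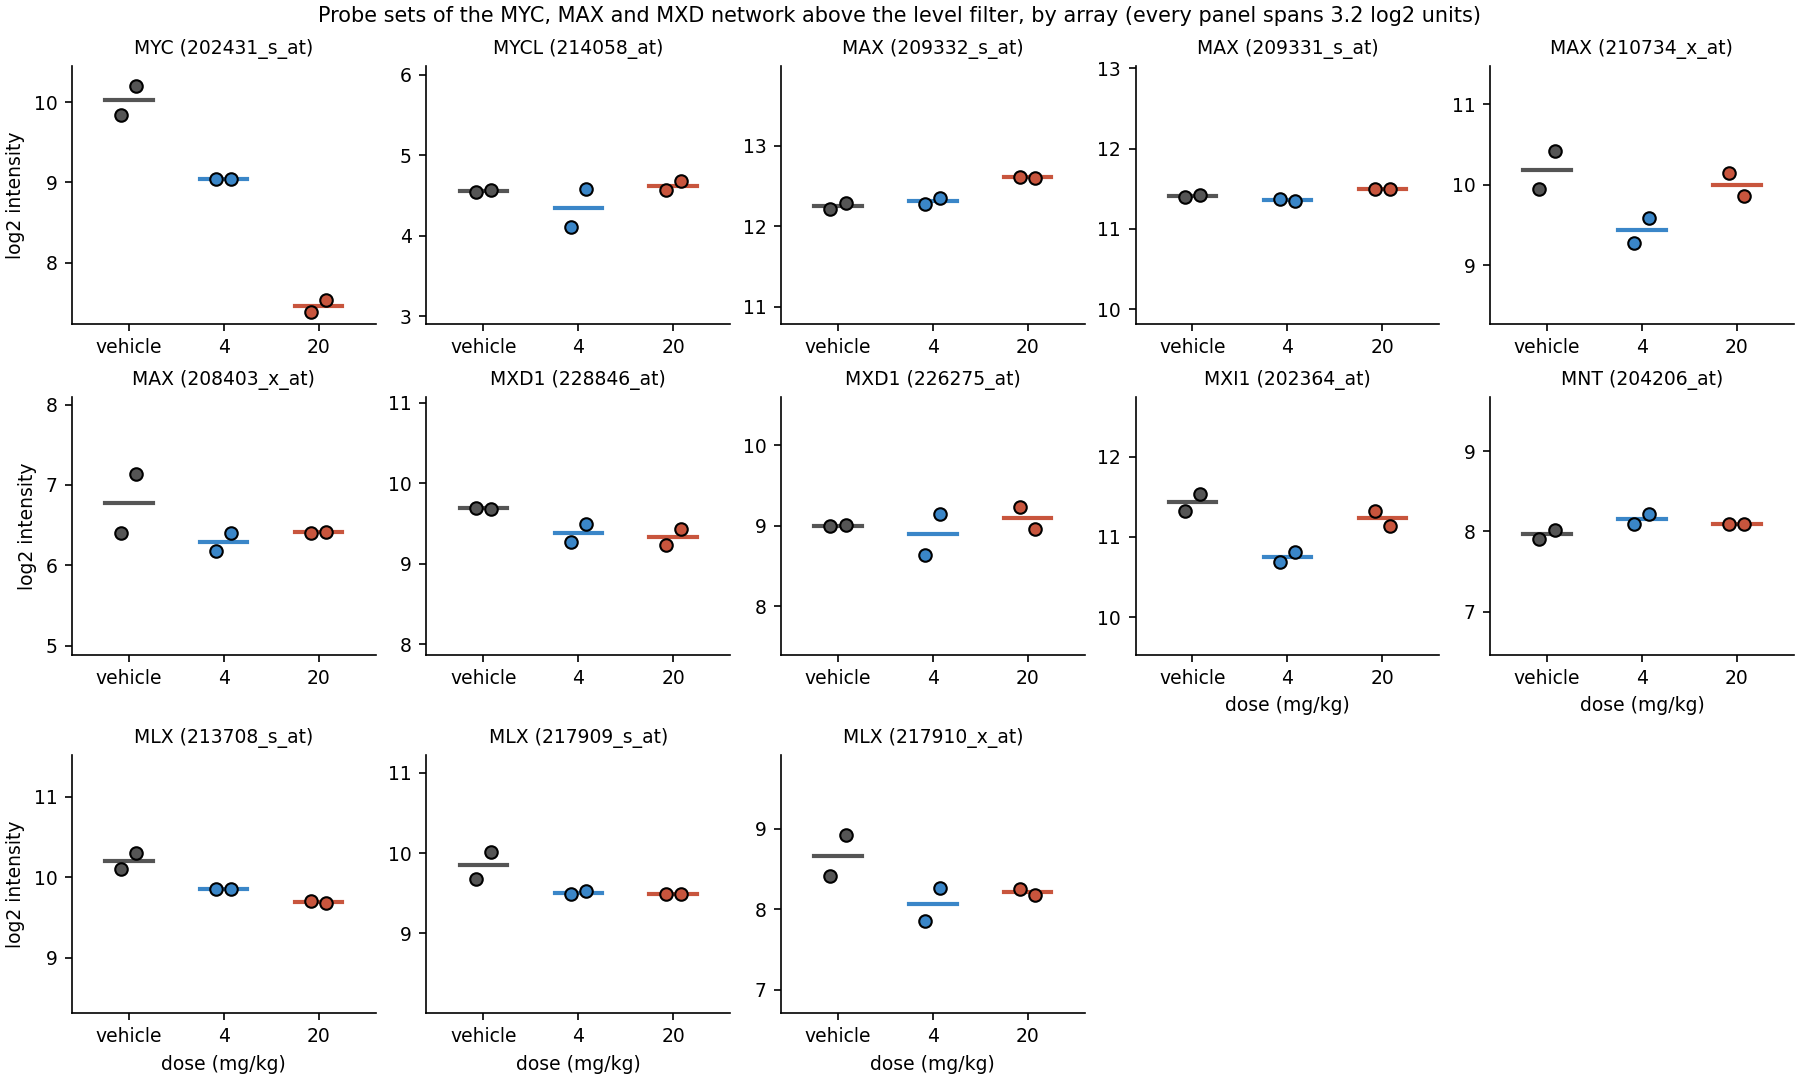
Log2 intensity of the 13 tested probe sets in each of the 6 arrays, by dose, with points for arrays and bars for group means; every panel spans 3.2 log2 units. MYC steps down from 10.02 with vehicle to 9.05 at 4 mg/kg and 7.47 at 20 mg/kg, while the other panels vary by at most 1.14 log2 units between their highest and lowest array.

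MYC, the activator of the network, was the member that moved most, and it was lower at 20 mg/kg. Its single probe set, 202431_s_at, read 9.84 and 10.21 with vehicle, 9.05 and 9.05 at 4 mg/kg, then 7.39 and 7.54 at 20 mg/kg. The 3 groups did not overlap, and they lay in the order of dose. On the linear scale the group means were 1049.6, 528 and 177. At 20 mg/kg MYC fell 5.89-fold against vehicle (log2 change -2.56, SE 0.15, 95% interval -2.98 to -2.14, adjusted p = 0.0174, n = 2 arrays per group). Among the 10271 tested genes this was the 17th lowest change. MYC at 4 mg/kg was 1.97-fold below vehicle (log2 -0.98, SE 0.15, 95% interval -1.40 to -0.56), which did not pass the threshold (adjusted p = 0.15). Between the doses it was 2.99-fold lower at 20 than at 4 mg/kg (log2 -1.58, 95% interval -2.00 to -1.16), and this did not pass after adjustment either (adjusted p = 0.0805). These comparisons share their arrays, so the steps are not independent.

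The MYC values themselves depended little on any array, and the calls did. Without 1 array at a time the change at 20 mg/kg ran from -2.74 to -2.38. It missed the threshold without 20 mg/kg replicate 1 (-2.48, adjusted p = 0.102), 20 mg/kg replicate 2 (-2.64, adjusted p = 0.0888) or either 4 mg/kg array (-2.56, adjusted p = 0.0639), the latter affecting only the estimate of the spread. At 4 mg/kg the MYC change ran from -1.16 to -0.80 without 1 array at a time. Both 4 mg/kg arrays gave exactly the same MYC value, a tie that GCRMA can produce and that lowers the spread in that group to 0.

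MAX, the partner that MYC and its antagonists share, was higher at 20 mg/kg by its brightest probe set. Its brightest probe set, 209332_s_at, read 12.21 and 12.28 with vehicle, 12.28 and 12.35 at 4 mg/kg, then 12.61 and 12.60 at 20 mg/kg. Both 20 mg/kg arrays lay above the other 4, while the vehicle and 4 mg/kg arrays overlapped. By this probe set MAX rose 1.28-fold at 20 mg/kg against vehicle (log2 0.36, SE 0.04, adjusted p = 0.0427). Against 4 mg/kg the difference was 0.29 (adjusted p = 0.121), and at 4 mg/kg against vehicle it was 0.07 (adjusted p = 0.533).

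The call on MAX was the weaker of the pair called, and its probe sets did not read alike. It was lost without any 1 of the 6 arrays: without vehicle replicate 1 or 2 (log2 0.32 and 0.40, adjusted p = 0.0697 and 0.0999), without either 4 mg/kg array (0.36, adjusted p = 0.0804), and without 20 mg/kg replicate 1 or 2 (0.36 and 0.37, adjusted p = 0.191 and 0.164). A second probe set, 209331_s_at, read 11.40 and 11.43 with vehicle, 11.37 and 11.34 at 4 mg/kg, then 11.50 and 11.50 at 20 mg/kg. The 20 mg/kg arrays were again highest, by a mean of 0.09 over vehicle that did not pass (adjusted p = 0.139 in the fit of all probe sets).

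The other 2 tested MAX probe sets, whose names end in _x_at because their probes may also match other transcripts, showed another pattern. The brighter of them, 210734_x_at, read 9.95 and 10.42 with vehicle, 9.28 and 9.59 at 4 mg/kg, then 10.14 and 9.85 at 20 mg/kg, lowest at 4 mg/kg. At that dose it was 0.75 below vehicle on the log2 scale (95% interval -1.42 to -0.08, adjusted p = 0.293). The dimmer, 208403_x_at, read 6.41 and 7.14 with vehicle, 6.18 and 6.40 at 4 mg/kg, then 6.41 and 6.41 at 20 mg/kg, with vehicle replicate 2 above all other arrays. Averaged over all 5 probe sets, MAX was at -0.021 at 20 mg/kg (adjusted p = 0.987), against 0.36 by 209332_s_at alone.

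In all, 2 of the 7 tested members passed at 20 mg/kg, 1 lower (MYC) and 1 higher (MAX), against a background of 4.33% of all tested genes called there, 2.07% lower and 2.26% higher. At an unadjusted p under 0.05 there were 4 of the 7, against 24.2% of all genes. limma called none of the 7 at 4 mg/kg, against 0.0584% of all genes, and 4 of the 7 had an unadjusted p under 0.05, against 17.0% of all genes. Between the doses none of the 7 passed, against 0.37% of all genes, and 3 had an unadjusted p under 0.05, against 13.4% of all genes. With each of the 13 probe sets tested on its own the calls were the same 2, against 3.19% of all probe sets called at 20 mg/kg. In that fit no probe set of the whole table passed at 4 mg/kg (0%), and none of the 13 between the doses (0.254% of all). Of the 13, 5 had an unadjusted p under 0.05 at 20 mg/kg, 5 at 4 mg/kg and 4 between the doses, against 22.2%, 15.2% and 12.5% of all probe sets.

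**Figure D2:**
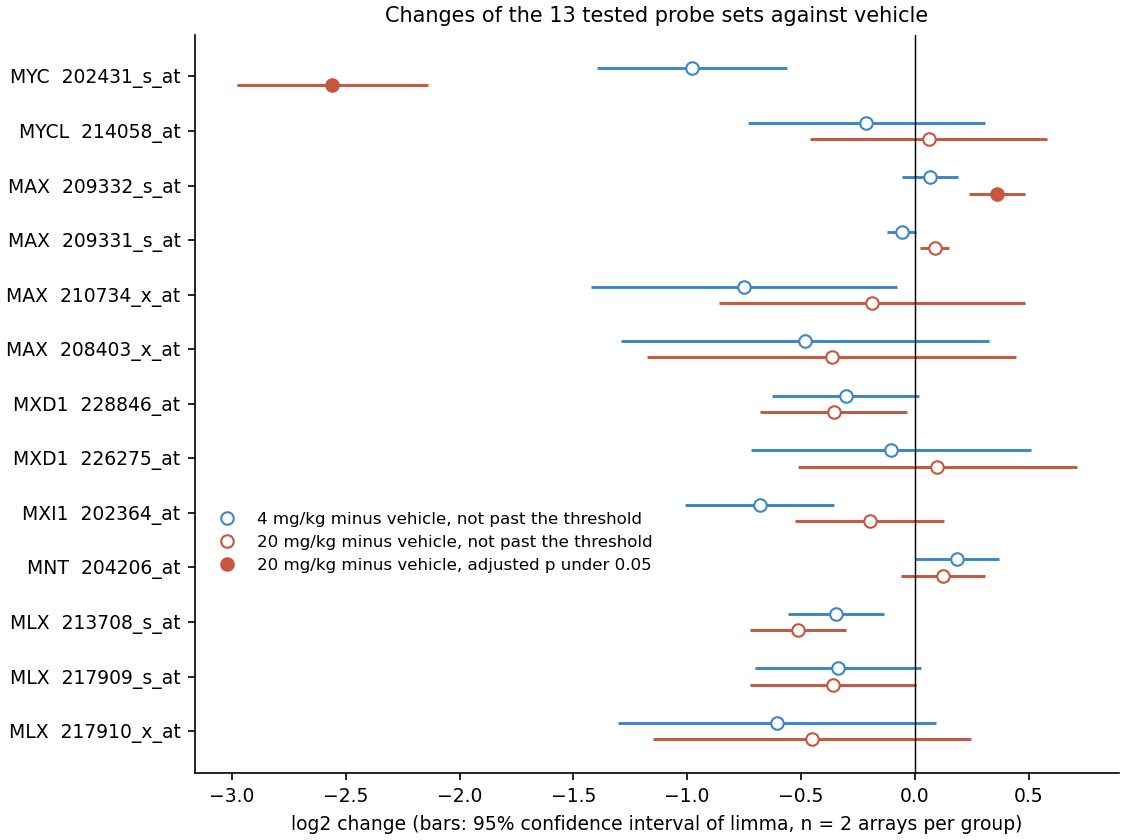
Log2 change of the 13 tested probe sets at 4 mg/kg (blue) and 20 mg/kg (red) against vehicle, with 95% confidence intervals from the fit of all probe sets and filled points for adjusted p under 0.05. Only the 20 mg/kg changes of MYC (-2.56) and of MAX probe set 209332_s_at (0.36) are filled.

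None of the 3 tested repressors passed the test at either dose. MXD1, which is known to take MAX from MYC as cells differentiate, read 9.70 and 9.68 with vehicle, 9.28 and 9.50 at 4 mg/kg, then 9.23 and 9.44 at 20 mg/kg by its brightest probe set, 228846_at. Both vehicle arrays lay above the 4 treated ones, which overlapped between the doses. The changes were -0.36 at 20 mg/kg (95% interval -0.68 to -0.04, adjusted p = 0.178) and -0.30 at 4 mg/kg (95% interval -0.63 to 0.018, adjusted p = 0.316), and neither passed. The second probe set of MXD1, 226275_at, read 8.995 and 9.01 with vehicle, 8.64 and 9.15 at 4 mg/kg, then 9.24 and 8.96 at 20 mg/kg. Its groups overlapped at both doses, with a change of 0.10 at 20 mg/kg (95% interval -0.51 to 0.71, adjusted p = 0.869). The signs of both probe sets at 20 mg/kg were opposite.

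MXI1, also known as MAD2, a tumour suppressor candidate of the same repressor class, was lowest at the lower dose. Its probe set, 202364_at, read 11.33 and 11.53 with vehicle, 10.68 and 10.81 at 4 mg/kg, then 11.33 and 11.14 at 20 mg/kg. The 4 mg/kg arrays lay below the other 4, and the 20 mg/kg arrays lay under the vehicle arrays, the nearest of them almost level. The difference from vehicle at 4 mg/kg was -0.68 (SE 0.11, 95% interval -1.01 to -0.36, adjusted p = 0.166), at 20 mg/kg it was -0.20 (adjusted p = 0.406), and from 4 to 20 mg/kg it was 0.48 (95% interval 0.16 to 0.81, adjusted p = 0.224). None of the 3 passed.

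MNT, the repressor that is present in resting and dividing cells alike, hardly varied. It read 7.91 and 8.02 with vehicle, 8.09 and 8.21 at 4 mg/kg, then 8.09 and 8.09 at 20 mg/kg. The treated arrays were all above both vehicle arrays, by a mean of 0.19 at 4 mg/kg (95% interval 0.0021 to 0.37, adjusted p = 0.292) and 0.13 at 20 mg/kg (95% interval -0.06 to 0.31, adjusted p = 0.361). Both 20 mg/kg arrays were tied.

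MLX, the other shared partner, was below vehicle at both doses by all 3 of its tested probe sets, and none passed. By the brightest, 213708_s_at, it read 10.10 and 10.30 with vehicle, 9.85 and 9.86 at 4 mg/kg, then 9.70 and 9.68 at 20 mg/kg. These groups did not overlap and lay in the order of dose, as those of MYC did. The change was -0.51 at 20 mg/kg (SE 0.07, 95% interval -0.72 to -0.30, adjusted p = 0.0554) and -0.35 at 4 mg/kg (95% interval -0.56 to -0.14, adjusted p = 0.177). Without 1 array at a time the change ran from -0.61 to -0.42 at 20 mg/kg and from -0.44 to -0.25 at 4 mg/kg.

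The second probe set of MLX, 217909_s_at, read 9.68 and 10.02 with vehicle, 9.49 and 9.53 at 4 mg/kg, then 9.49 and 9.49 at 20 mg/kg, with changes of -0.34 and -0.36. The third, 217910_x_at, read 8.41 and 8.92 with vehicle, 7.85 and 8.27 at 4 mg/kg, then 8.25 and 8.18 at 20 mg/kg, with changes of -0.60 and -0.45. In both, the 2 vehicle arrays were highest and the treated groups overlapped. Vehicle replicate 2, the highest array for every MLX probe set here, also had the highest 18S reading, and the part of that difference in the MLX values was not tested.

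In the gene fit, the arrays of the 2 groups did not overlap for 6 of the 7 members at 20 mg/kg and for 5 of 7 at 4 mg/kg, where 50.4% and 37.5% of all tested genes had no overlap. Between the doses 4 of 7 had none, beside 36.4% of all genes. The median change of the 7 members was -0.20 at 20 mg/kg and -0.30 at 4 mg/kg, beside medians of 0 over all genes in both comparisons.

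Genes around the network were taken from lists of textbook knowledge. Of 17 protein partners and cofactors of MYC, 14 were tested. They include the histone acetyltransferase scaffold TRRAP, the corepressor SIN3A that MXD proteins recruit, and the histone deacetylases HDAC1 and HDAC2. None passed in any comparison, where 4.33%, 0.0584% and 0.37% of all genes were called at 20 mg/kg, at 4 mg/kg and between the doses. At an unadjusted p under 0.05 there were 2 at 20 mg/kg, 0 at 4 mg/kg and 1 between the doses, where 24.2%, 17.0% and 13.4% of all genes had such a p. The median changes were -0.13, -0.13 and -0.0015. The largest values were those of CDK9, the kinase that releases paused RNA polymerase, at -0.53 for 20 mg/kg (adjusted p = 0.445) and -0.53 for 4 mg/kg (adjusted p = 0.536). These rest on vehicle replicate 2, without which CDK9 was at -0.09 and -0.087. Next were HDAC2 at -0.39 for 20 mg/kg (adjusted p = 0.0805) and -0.47 between the doses (adjusted p = 0.126), SIN3A at -0.29 for 4 mg/kg (adjusted p = 0.474), and RUVBL2, an ATPase of chromatin complexes, at -0.43 between the doses (adjusted p = 0.566). Without 1 array at a time SIN3A ran from -0.45 to -0.14 and RUVBL2 from -0.69 (without 20 mg/kg replicate 2) to -0.16 (without 20 mg/kg replicate 1).

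Genes that set the turnover of MYC protein gave no call either. Of 15 listed, 12 were tested and none passed, where 4.33%, 0.0584% and 0.37% of all genes were called at 20 mg/kg, at 4 mg/kg and between the doses. At an unadjusted p under 0.05 there were 1, 1 and 0 of them, against 24.2%, 17.0% and 13.4% of all genes. The median changes were -0.0017 at 20 mg/kg and -0.041 at 4 mg/kg. GSK3B, the kinase that marks MYC for destruction, was at 0.37 at 20 mg/kg (adjusted p = 0.397), and USP36, a deubiquitinase of MYC, at -0.36 (adjusted p = 0.348). Against vehicle at 4 mg/kg SKP2, a ubiquitin ligase subunit, was at 0.49 (adjusted p = 0.166) and the deubiquitinase USP28 at 0.40 (adjusted p = 0.399). Between the doses USP28 was at -0.27 (adjusted p = 0.662) and USP36 at -0.26 (adjusted p = 0.667). At 20 mg/kg USP36 ran from -0.58 (without 20 mg/kg replicate 2) to -0.15 (without 20 mg/kg replicate 1), and was at -0.073 averaged over its probe sets. GSK3B ran from 0.17 to 0.56 without 1 array there, and USP28 at 4 mg/kg from 0.16 to 0.63. Other probe sets reversed both signs. By its next brightest probe set GSK3B was at -1.36 at 20 mg/kg, and averaged over its probe sets at -0.19. USP28 at 4 mg/kg was at -0.022 by its next brightest probe set and at 0.16 as the average. Transcripts of these enzymes say nothing of MYC protein, which was not measured.

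On the MLX side, 3 of 5 listed genes were tested: MLXIP, its partner in glucose sensing, and TXNIP and ARRDC4, the arrestin-like genes that this pair is known to induce. ARRDC4 read 8.19 and 7.85 with vehicle, 8.45 and 8.22 at 4 mg/kg, then 9.14 and 9.06 at 20 mg/kg, with both 20 mg/kg arrays above the rest. TXNIP read 13.72 and 14.03 with vehicle, 13.89 and 14.03 at 4 mg/kg, then 14.81 and 14.40 at 20 mg/kg, again highest at 20 mg/kg. Against vehicle ARRDC4 was at 1.08 (SE 0.16, adjusted p = 0.0566) and TXNIP at 0.73 (SE 0.20, adjusted p = 0.138). From 4 to 20 mg/kg they were at 0.77 (adjusted p = 0.186) and 0.65 (adjusted p = 0.308). None of the 3 genes passed at 20 mg/kg, at 4 mg/kg or between the doses, where 4.33%, 0.0584% and 0.37% of all genes did. In the same order, 2, 1 and 3 of them had an unadjusted p under 0.05, against 24.2%, 17.0% and 13.4% of all genes. MLXIP at 4 mg/kg was at -0.38 (adjusted p = 0.283) and ARRDC4 at 0.32 (adjusted p = 0.446), with ranges of -0.56 to -0.21 and 0.15 to 0.49 without 1 array.

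**Figure D3:**
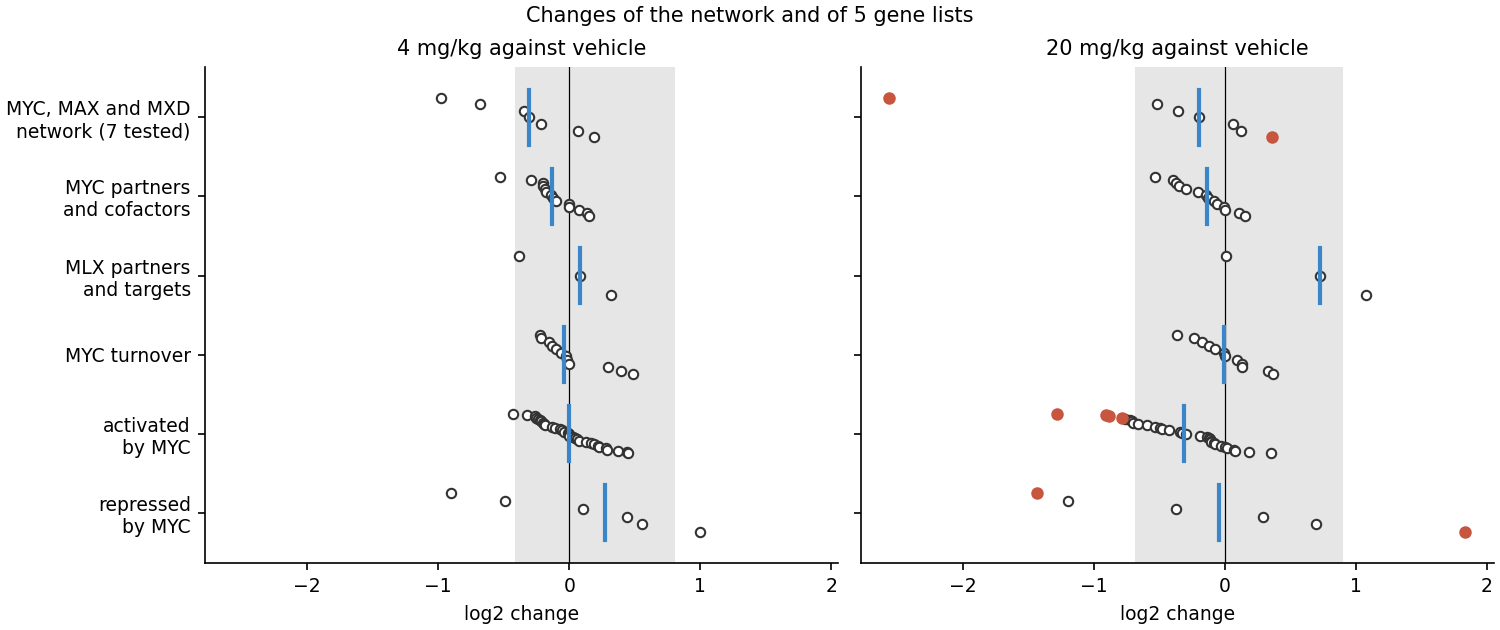
Log2 change of the 7 tested network genes and of 5 gene lists at 4 mg/kg (left) and 20 mg/kg (right) against vehicle, with a point per gene, red for adjusted p under 0.05, blue bars for medians and grey for the middle 90% of all tested genes. MYC at -2.56 lies furthest left at 20 mg/kg, and the genes activated by MYC have their median at -0.31 there and at -0.0041 at 4 mg/kg.

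Among genes that MYC is known to activate, those past the test at 20 mg/kg were all lower. Of 46 listed, 32 were tested: 4 fell, none rose and 28 did not pass, beside 2.07% of all genes lower. At an unadjusted p under 0.05 there were 8 of the 32, against 24.2% of all genes, a share near the background. The median change was -0.31, beside 0 over all genes, and 26 of the 32 values were below 0, where 49.4% of all genes were. This list is not independent evidence of a direction.

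The genes that fell were NOP16, NME1, SRM and PA2G4. NOP16, a nucleolar protein of ribosome assembly, read 8.23 and 8.10 with vehicle, 7.93 and 7.88 at 4 mg/kg, then 6.81 and 6.95 at 20 mg/kg (log2 change at 20 mg/kg -1.28, SE 0.07, adjusted p = 0.0174). By its next brightest probe set NOP16 was at -0.51 (adjusted p = 0.199), and averaged over all its probe sets at -0.45 (adjusted p = 0.0226). SRM, spermidine synthase of the polyamine pathway, read 7.44 and 7.39 with vehicle, 7.31 in both 4 mg/kg arrays and 6.56 and 6.50 at 20 mg/kg (-0.88, SE 0.03, adjusted p = 0.0104). In NOP16, by its brightest probe set, and in SRM the 20 mg/kg arrays stood well below the other 4, and the 4 mg/kg arrays stood just below vehicle. NME1, a nucleoside diphosphate kinase, read 12.51 and 12.62 with vehicle, 12.22 and 12.44 at 4 mg/kg and 11.66 in both 20 mg/kg arrays (-0.90, SE 0.09, adjusted p = 0.036). PA2G4, a growth-related protein of the nucleolus, read 10.07 and 9.99 with vehicle, 9.84 in both 4 mg/kg arrays and 9.24 and 9.27 at 20 mg/kg (-0.78, SE 0.04, adjusted p = 0.0133).

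None of the 32 passed at 4 mg/kg, where 0.0584% of all genes were called. An unadjusted p under 0.05 was found for 7, against 17.0% of all genes. The median was -0.0041, with 16 values below 0. POLR1B, a subunit of RNA polymerase I, was at 0.45 (adjusted p = 0.489) and MCM4, of the replicative helicase, at 0.44 (adjusted p = 0.296), both above vehicle. Without 1 array POLR1B ran from 0.17 to 0.72. MYC was at -0.98 in the same comparison. From 4 to 20 mg/kg 2 of the 32 fell, SRM (-0.78, adjusted p = 0.0259) and PA2G4 (-0.59, adjusted p = 0.0444), beside 0.243% of all genes lower, with a list median of -0.30 beside -0.01 over all genes.

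Genes that MYC is known to repress moved both ways. Of 11 listed, 6 were tested, and at 20 mg/kg 1 rose and 1 fell, where 2.26% of all genes were called higher and 2.07% lower. At an unadjusted p under 0.05 there were 4 of the 6, against 24.2% of all genes. CDKN1B, the cell cycle inhibitor p27, read 11.57 and 11.36 with vehicle, 12.33 and 12.60 at 4 mg/kg, then 13.22 and 13.39 at 20 mg/kg, in groups that did not overlap and that lay in the order of dose. It rose by 1.84 at 20 mg/kg (SE 0.14, adjusted p = 0.0246) and was at 1.002 at 4 mg/kg (adjusted p = 0.15) and 0.83 between the doses (adjusted p = 0.145). THBS1, the matrix protein thrombospondin, read 10.72 and 10.39 with vehicle, 11.04 and 11.17 at 4 mg/kg, then 9.19 and 9.05 at 20 mg/kg, highest at the lower dose. It fell by 1.43 at 20 mg/kg (SE 0.14, adjusted p = 0.0326) and was at -1.98 between the doses (adjusted p = 0.0507). NDRG1, a stress-induced protein, was at -1.20 at 20 mg/kg (adjusted p = 0.0886) and -0.91 at 4 mg/kg (adjusted p = 0.216). The median over the 6 was -0.04 at 20 mg/kg, and it was -0.52 without vehicle replicate 1 and 0.44 without vehicle replicate 2. None of the 6 passed at 4 mg/kg or between the doses, where 0.0584% and 0.37% of all genes were called. In each of these comparisons 3 had an unadjusted p under 0.05, against 17.0% and 13.4% of all genes.

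These listed calls rested on few arrays. Over the 5 lists 6 genes were called at 20 mg/kg, and the count was 5 and 3 without vehicle replicate 1 and 2, 1 without either 4 mg/kg array, and 1 and 0 without 20 mg/kg replicate 1 and 2. The directions of the 6 held in each of these fits, though leaving out a 4 mg/kg array cannot change them at 20 mg/kg. Without probe sets ending in _x_at or _s_at THBS1 was at 0.092 (adjusted p = 0.527). The 2 calls between the doses, SRM and PA2G4, became 1 without 4 mg/kg replicate 1 and 0 without any other array.

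**Figure D4:**
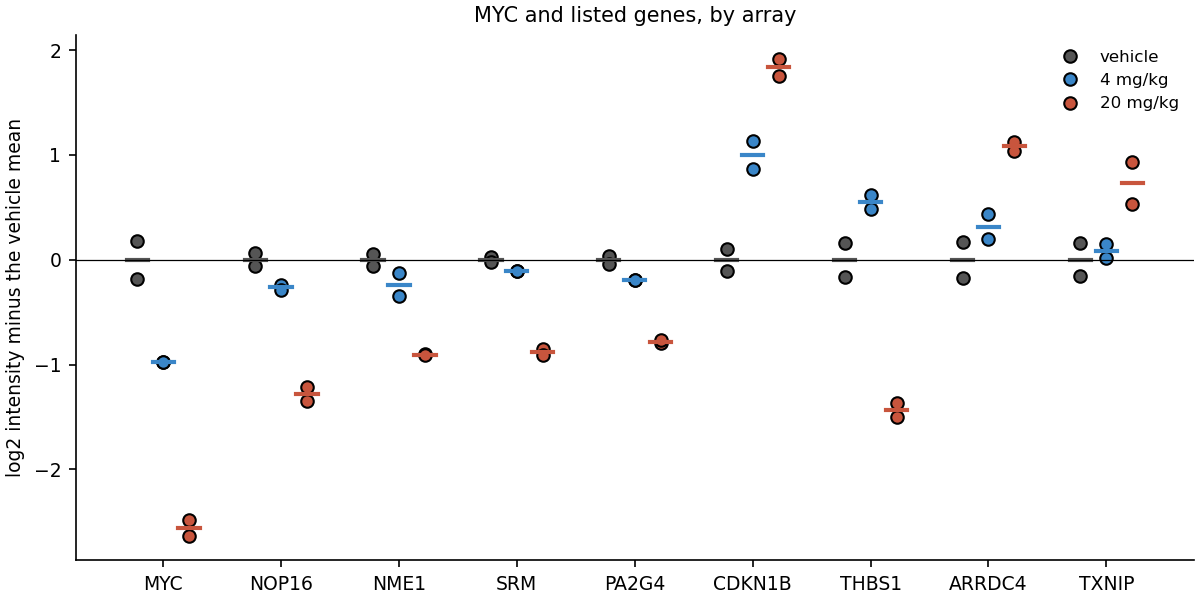
Log2 intensity of MYC and of listed genes in each array, as the difference from the gene's vehicle mean, with points for arrays and bars for group means. MYC is at -0.98 at 4 mg/kg and -2.56 at 20 mg/kg, and CDKN1B is at 1.002 and 1.84. NOP16, NME1, SRM and PA2G4, which were picked for their calls at 20 mg/kg, leave vehicle mainly at that dose.

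Over the 7 listed readouts of ERK signalling, the pathway known to control MYC transcription, 6 fell and none rose at 20 mg/kg, where 2.07% of all genes were called lower, with a median of -2.89. DUSP6, an ERK phosphatase, was at -5.47, IER3, an immediate early gene, at -3.64, CCND1, cyclin D1, at -3.56 and PHLDA1 at -2.89. None passed at 4 mg/kg in limma, where 0.0584% of all genes were called. An unadjusted p under 0.05 was found for 3, against 17.0% of all genes. The median at 4 mg/kg was -0.43, where MYC was at -0.98. The largest changes of the readouts at 4 mg/kg were those of IER3 at -0.93 (adjusted p = 0.114) and SPRY4 at -0.59 (adjusted p = 0.27). Of the 7, 6 were below 0 there. Whether MYC differs from these readouts at the lower dose was not tested.

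The genes whose centred profile over the 6 arrays lay nearest to that of MYC, by Euclidean distance, were HK2, GOT1, TNFRSF12A, PTPRE and TNFRSF10A, with Pearson's r between 0.97 and 0.99. Since the 6 arrays form 3 dose groups, such a likeness describes a shared course over dose. HK2, a hexokinase of glycolysis, was nearest: it read 10.71 and 10.68 with vehicle, 9.74 in both 4 mg/kg arrays, and 8.45 and 8.38 at 20 mg/kg. Its changes were -2.28 at 20 mg/kg (adjusted p = 0.00757) and -0.96 at 4 mg/kg (adjusted p = 0.0485), close in size to those of MYC. Averaged over all HK2 probe sets they were -0.76 and -0.32, but those after the brightest were below the level filter. GOT1, an aminotransferase, was at -2.502 and -0.64, TNFRSF12A, the TWEAK receptor, at -2.13 and -0.44, PTPRE, a tyrosine phosphatase, at -2.04 and -0.63, and TNFRSF10A, a TRAIL receptor, at -2.22 and -0.48. All 5 passed at 20 mg/kg and HK2 alone at 4 mg/kg, where 4.33% and 0.0584% of all genes were called. The 5 were picked for a profile like that of MYC in the same arrays, so their calls are no separate evidence. For PTPRE, as for HK2, the probe sets after the brightest were below the level filter. Averaged over its probe sets PTPRE was at -0.69 at 20 mg/kg, and at that dose all but HK2 missed the threshold without at least 1 array. The call on HK2 at 4 mg/kg was lost without vehicle replicate 2 (adjusted p = 0.106), 4 mg/kg replicate 2 (0.0856) or either 20 mg/kg array (0.174), with the mean of probe sets (0.0895), and in 13 of 18 alternatives in all.

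Nearest to MXI1 were FAP, LOXL2, BNIP3, QSOX1 and C1R, with Pearson's r between 0.96 and 0.99 over the 6 arrays. Each was lowest at 4 mg/kg, as MXI1 was, which follows from how they were picked. FAP, a surface protease from the fibroblast list, read 9.35 and 9.73 with vehicle, 8.81 and 8.999 at 4 mg/kg, then 9.42 and 9.26 at 20 mg/kg. At 4 mg/kg against vehicle the 5 were between -0.73 (LOXL2, a collagen crosslinking enzyme) and -0.53 (BNIP3, a mitochondrial protein of mitophagy), with adjusted p from 0.15 to 0.245, and at 20 mg/kg between -0.25 and -0.04. None of the 5 passed in either comparison. The summed fibroblast markers given above overlapped between vehicle and 4 mg/kg, but COL1A1 made up most of each sum. COL1A1 read 15.03 and 15.11 with vehicle, beside 10.53 and 10.97 for COL1A2, the next brightest. The sums thus say little of the other markers. FAP was at -0.63 at 4 mg/kg (adjusted p = 0.218), 1 of 2 below 0 among the 5 tested. The part of fibroblast content in the MXI1 values was not tested.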

How the data were processed

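The authors deposited intensity values on a linear scale, 1 column per array. Per the submitters' processing notes GCRMA was run under R 2.10.0. This method corrects background by probe sequence, aligns the arrays' distributions and summarises probes by median polish, which can give tied values. The deposited intensities were converted to log2, and no depth applies: the number of arrays limits the precision.

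Gene names came from the platform annotation (41097 probe sets with 1 gene, 1801 with several, 11777 with none listed). Each gene was read by its brightest single-gene probe set, and genes with a mean log2 under 4 were left out, leaving 10271. limma 3.58.1 in R 4.3.3 (lmFit, eBayes) was fitted to all 6 arrays with 3 contrasts, two-sided, adjusted by Benjamini-Hochberg over all tested genes, threshold 0.05, with 3 residual and 0.723 prior degrees of freedom. SEs and 95% intervals are limma's. A second fit took each of 16900 probe sets as its own feature. The script was tested on simulated data.

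The members, the gene lists and the tests were chosen with earlier results of these data known. All members were named, then for each pathway list up to 4 called genes with the largest change, or else the 2 with the largest change, and the 5 nearest profiles to MYC and MXI1. Of 124 list entries, those below the level filter or without a single-gene probe set were not analysed here. The alternatives changed the scale, filter, probe set, normalization, moderation, replicate term and arrays. The mean of probe sets took all single-gene probe sets of a tested gene, also those below the level filter.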

Additional observations from a re-analysis of the deposited data

Results flagged for a closer look

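A probe set left out of the tests, 210778_s_at, is annotated to MXD4 and to a microRNA gene together, so its reading belongs to no 1 gene here. It had a mean log2 intensity of 4.95 at 20 mg/kg, above the vehicle arrays. Its arrays read 4.36 and 4.49 with vehicle, 4.24 and 4.48 at 4 mg/kg, then 5.36 and 4.54 at 20 mg/kg, so that 20 mg/kg replicate 1 alone stood far above the rest. The other 2 probe sets with this annotation read at most 3.55 and 2.26 in any array. The difference was not tested.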

How the results depend on the processing

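With 2 arrays a group, more values crossed the threshold than changed sign. Some alternatives cannot change the size or sign of a value, so they do not test its direction. These are the level filter, the moderation, the replicate block, the removal of tied genes, and leaving out arrays of the group not compared. For MYC, which has 1 single-gene probe set, the choice or averaging of probe sets cannot change the value either. Many of the MYC fits counted below could thus only return its main value. Of 381 values of members under alternatives, 336 kept direction and side of the threshold, 17 lost a call, 15 gained one and 13 changed sign. MYC at 20 mg/kg was lower in all 18 fits that measured it (-2.74 to -2.38) and called in 12, MAX was called in 6 of 18. The 2 members called at 20 mg/kg became 0 with no level filter (MYC -2.56, adjusted p = 0.0633), 0 without probe sets ending in _x_at or _s_at, which leaves MYC, MAX and MLX untested, 0 with the 4 compared arrays alone, 1 with the next brightest probe set, 1 with the mean of probe sets, 1 with the replicate block, 4 after quantile normalization, and 0 to 2 without 1 array. At 4 mg/kg none became 1 after quantile normalization and 2 with centred arrays. Between the doses it became 1 after quantile normalization, with centred arrays or without tied genes. Calls over all genes moved too. At 20 mg/kg the 445 became 57 with no level filter, 136 with the 4 compared arrays alone and 1598 after quantile normalization. At 4 mg/kg the 6 became 111 after quantile normalization and 766 with centred arrays. Between the doses the 38 became 330 and 494 in these fits, and 77 without tied genes.

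Signs changed for MAX at 20 mg/kg (-0.021 as the mean of probe sets) and at 4 mg/kg (-0.057 with the next probe set, -0.24 as the mean, -0.031 with centred arrays), MXD1 at 20 mg/kg (0.10 with the next probe set) and between the doses (0.20 with the next probe set, 0.0499 as the mean, 0.039 after quantile normalization, 0.014 with centred arrays, and -0.16 to 0.058 without 1 array), MYCL at 4 mg/kg (-0.45 to 0.026 without 1 array) and MNT between the doses (0.0065 with centred arrays). Among other named genes they changed for THBS1 without _x_at and _s_at probe sets (0.092 at 20 mg/kg, 0.0017 between the doses). At 20 mg/kg they changed for GSK3B (-1.36 with the next probe set, -0.19 as the mean), QSOX1 (0.26 and 0.075 likewise, -0.26 to 0.12 without 1 array) and C1R (-0.17 to 0.092 without 1 array). At 4 mg/kg they changed for SIN3A (0.18 with the next probe set), USP28 (-0.022 with the next probe set and without _x_at and _s_at probe sets) and MCM4 (-0.076 in both of these, -0.0031 as the mean). The cause was not tested.

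Over all genes, the 445, 6 and 38 calls of the 3 comparisons ranged from 5 to 1958, 0 to 766 and 0 to 494. With centred arrays 67.5% of the calls at 4 mg/kg and 46.0% between the doses were higher, against 50.0% and 34.2%, and after quantile normalization 64.9% and 47.0%. Centring moved the median of all genes by 0.0988 at 4 mg/kg. The median of genes activated by MYC at 20 mg/kg ran from -0.51 to -0.13. Deviations of same-numbered arrays correlated weakly between groups, at 0.15, -0.12 and 0.13. These values, from 2 arrays a group, cannot settle whether replicate numbers pair the arrays. With the replicate block MYC at 20 mg/kg had an adjusted p of 0.0488 and MAX of 0.07.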
